A study of Mus musculus with 6 samples.

Results

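The nuclear genes for subunits of oxidative phosphorylation were examined in mouse peritoneal macrophages with and without Tet2, the gene of a dioxygenase that oxidises 5-methylcytosine in DNA. Members were taken by symbol from the platform annotation: names starting with Ndufa, Ndufb, Ndufc, Ndufs, Ndufv, Uqcr, Cox4i, Cox5, Cox6, Cox7 or Atp5, the genes Sdha, Sdhb, Sdhc and Sdhd, and Cycs. The rule dropped 8 Ndufaf assembly factors and 3 pseudogenes. It left 73 genes of 23185 named genes and 25206 probe sets, namely 35 of complex I, 4 of complex II, 7 of complex III, cytochrome c, 14 of complex IV and 12 of complex V. Of 86 protein-coding genes in the RefSeq table that match the same name patterns, 13 were not analysed here.

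Oxidative phosphorylation is the main source of ATP in most resting cells and takes place at the inner mitochondrial membrane. Complexes I and II pass electrons from NADH and succinate to ubiquinone, complex III passes them on to cytochrome c, and complex IV hands them to oxygen. Complexes I, III and IV pump protons, and complex V, the ATP synthase, lets the protons flow back to make ATP. In macrophages the pathway is known for its link to activation state: interleukin-4 raises it and bacterial lipopolysaccharide curbs it. Mitochondrial DNA encodes the central membrane subunits of complexes I, III, IV and V, which were not analysed here.

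The cells came from C57BL/6J mice, either Tet2-/- or wild-type littermates, 4 days after an intraperitoneal injection of 1 mL of 4% thioglycollate, an irritant that draws macrophages into the cavity. They were plated, left untreated and lysed 10 h later, and total RNA was hybridised to Affymetrix arrays. Each genotype had 3 arrays, which the titles call biological replicates 4, 5 and 6. Whether each is a separate animal is not said outright, and p-values reflect only how far these samples differ. The sources used here give neither the age of the mice, nor the deleted stretch of Tet2, nor the cell types that carried the deletion. In bulk RNA, fewer cells of a type and less RNA per cell cannot be told apart.

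The labels disagreed with each other for 4 of the 6 samples, where title and genotype characteristic named opposite genotypes. Groups follow the title. Tet2 itself was at log2 levels of 4.35, 3.74 and 3.79 in the wild-type libraries and 3.80, 4.05 and 3.67 in those labelled Tet2-/-. The difference was -0.12 (95% interval -0.56 to 0.32, limma adjusted p = 0.998), and -0.035 without Tet2-/- replicate 6. The groups overlapped, so Tet2 does not settle the labels. The library labelled Tet2-/- replicate 6 stood apart from the rest. Its median log2 level was 2.93 against 2.77 to 2.82 elsewhere, and its mean correlation with the other arrays was 0.982 against 0.986 to 0.989. Differences of single genes that move by over 1.5 times when it is left out are given with and without it. The mean log2 level of 7 macrophage markers was 8.74 to 9.09 in wild-type and 8.49 to 9.26 in Tet2-/- libraries.

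No subunit gene passed the test between the genotypes, and most differences were small and negative. Of the 73 genes, 52 were lower and 19 higher in the Tet2-/- libraries by the group means, and 2 (Ndufv1 and Cox6b2) were equal. The median log2 difference was -0.09, with single genes between -0.59 and 0.54. An adjusted p under 0.05 by limma was reached by 0 of 73 genes (smallest adjusted p 0.998), against 0.0% of all probe sets. Unadjusted p-values under 0.05 were found for 2 genes that were higher (2.74%, against 1.71% of all probe sets) and 1 that was lower (1.37%, against 1.9%). The groups did not overlap for 1 gene that was higher (1.37%, against 3.33%) and 1 that was lower (1.37%, against 4.07%). Resting on 1 or 2 genes each, these shares are near or under the background.

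The spread between arrays of one genotype was wider than the difference between genotypes. Taking each gene's level minus its own mean over the 6 arrays, the average over the 73 genes was -0.12, 0.11 and 0.10 in wild-type replicates 4, 5 and 6. It was -0.10, -0.22 and 0.24 in Tet2-/- replicates 4, 5 and 6. The Tet2-/- group therefore held both the lowest and the highest array, with every wild-type array between them. Replicate 6 was the highest array for 38 of the 73 genes (52.1%, against 29.5% of all probe sets and 20.5% of the brighter probe sets, those with a mean above the median of all). Replicate 5 was the lowest for 36 (49.3%, against 20.8% and 18.0%). The subunit genes had a median range over the 6 arrays of 0.66 log2 units, against 0.52 over all probe sets.

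**Figure D1:**
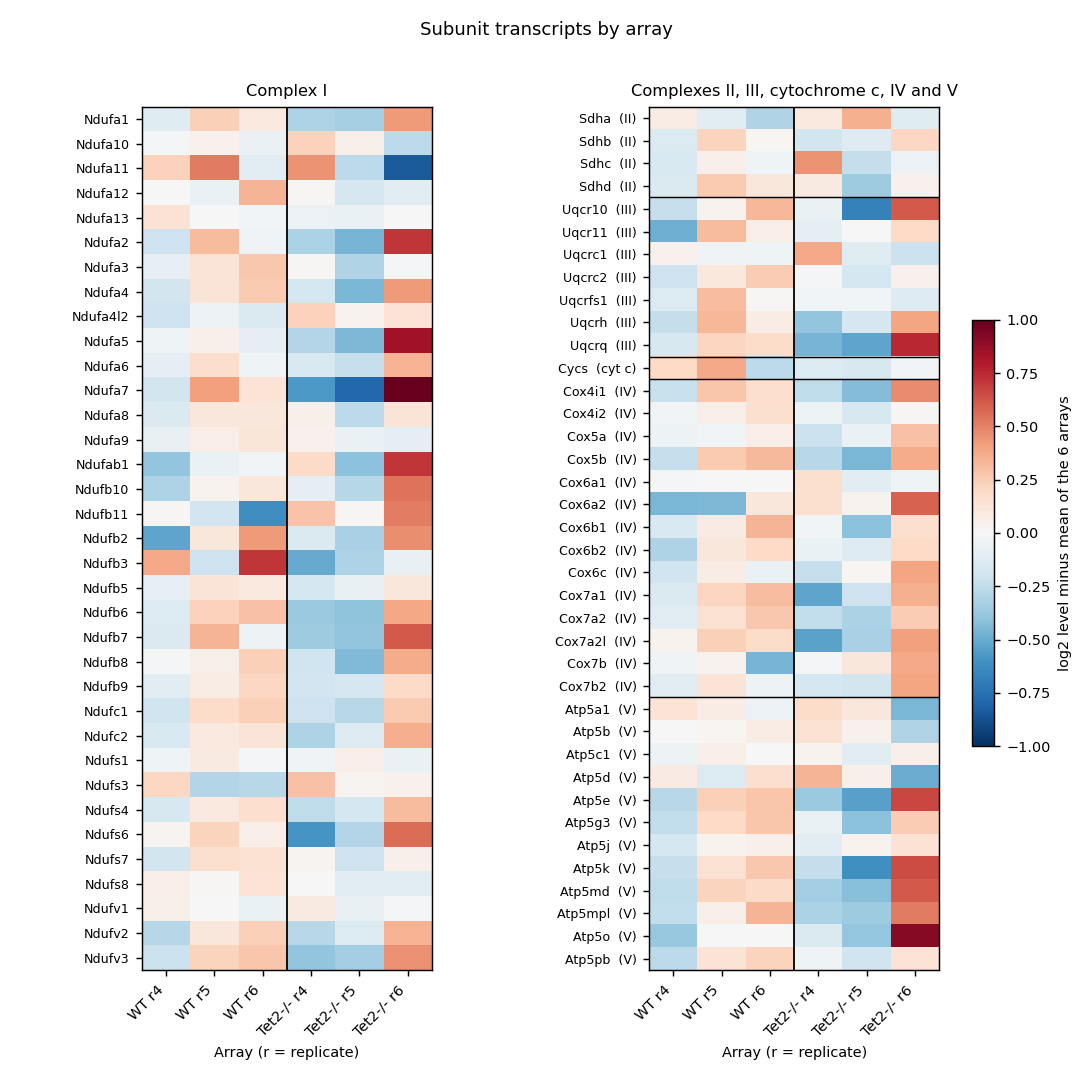
Log2 level of each of the 73 subunit genes minus its mean over the 6 arrays, by array (columns) and gene (rows, complex in brackets); WT is wild-type, r is the replicate number and the black vertical line separates the genotypes. Red is above and blue below the gene's own mean: Tet2-/- replicate 6 is the highest array for 38 genes and Tet2-/- replicate 5 the lowest for 36. Replicate 6 is above the gene's own mean for 55 genes and the lowest array for 8. Of these 8, Ndufa11, Atp5a1, Atp5b and Atp5d lie furthest below their own mean.

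The median difference moved with each array. With Tet2-/- replicate 4, 5 or 6 left out it was -0.04, 0.01 or -0.17. With wild-type replicate 4, 5 or 6 left out it was -0.17, -0.04 or -0.04. Without Tet2-/- replicate 6, 57 of the 73 genes were lower, against 13920 of all 25206 probe sets. An unadjusted limma p under 0.05 was found for 19 lower genes (26.0%, against 4.91% of all probe sets) and for 0 higher genes (0.0%, against 4.96%). The same fit called 0 of 73 subunit genes at an adjusted p under 0.05 (0.0%, against 0.0754%, or 19 probe sets), the smallest adjusted p among them being 0.237. The 19 lower genes lay in complex I (10), complex III (1), complex IV (5) and complex V (3).

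Promoter letters are shown for the genes with a match to factors known to act on this pathway. Nuclear respiratory factor 1 (NRF1), named for its sites in the cytochrome c promoter, activates many subunit genes. Windows from 250 bases before to 50 after the annotated start, from RefSeq on GRCm38.p6, were found for 60 of the 73 genes. The NRF1 letters GCGCATGC, searched on both strands as all motifs here, were in 9 of the 60 (15%), against 3.93% of 17491 protein-coding genes and 3.05% of 27025 genes of all kinds. The 9 were Cycs, Sdhb, Uqcrc1, Uqcr11, Cox6a1, Atp5k, Ndufa6, Ndufa8 and Ndufa11, so every complex had at least 1. The 110 bases before the start are printed, 5′ to 3′ on the gene's strand, for 5 of these genes whose match lies well inside that stretch, and capitals mark the NRF1 letters on either strand, whose matches overlap in Ndufa11 and Atp5k.
Cycs, chr6:50566570-50566679, minus strand: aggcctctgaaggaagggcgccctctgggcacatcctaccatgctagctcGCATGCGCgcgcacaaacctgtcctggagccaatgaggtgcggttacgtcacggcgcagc
Sdhb, chr4:140961161-140961270, plus strand: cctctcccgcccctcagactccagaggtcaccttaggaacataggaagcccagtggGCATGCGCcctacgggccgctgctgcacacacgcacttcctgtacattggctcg
Ndufa6, chr15:82354292-82354401, minus strand: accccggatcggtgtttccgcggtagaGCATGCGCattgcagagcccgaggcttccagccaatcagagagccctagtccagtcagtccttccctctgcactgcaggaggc
Ndufa11, chr17:56717652-56717761, plus strand: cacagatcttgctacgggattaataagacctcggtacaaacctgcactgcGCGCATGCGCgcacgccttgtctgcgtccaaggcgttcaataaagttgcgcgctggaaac
Atp5k, chr5:108434400-108434509, minus strand: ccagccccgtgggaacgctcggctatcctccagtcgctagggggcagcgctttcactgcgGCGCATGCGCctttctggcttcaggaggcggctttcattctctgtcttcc

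The letters CCGGAAGT, bound by ETS factors such as GABPA (nuclear respiratory factor 2), were in 3 of 60 windows (5.0%, against 5.69% of protein-coding genes), those of Ndufs3, Uqcrh and Uqcr11. The letters TCAAGGTCA of oestrogen-related receptors were in 2 (3.33%, against 0.377%), those of Sdhd and Atp5g3. The GC box GGGCGG of Sp1 was in 28 (46.7%, against 49.2%). CpG pairs were more frequent in the members' windows than elsewhere, with a median of 19 over all 65 windows of the members, some of which have several starts, against 13 over 21262 windows of protein-coding genes, and the NRF1 letters hold a CpG pair. The 110 bases before the start of Atp5g3, a gene of the proton-carrying ring of ATP synthase, show the receptor letters in capitals on the opposite strand.
Atp5g3, chr2:73911327-73911436, minus strand: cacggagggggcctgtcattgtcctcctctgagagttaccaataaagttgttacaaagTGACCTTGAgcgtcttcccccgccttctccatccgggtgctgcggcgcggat

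The YY1 letters AAGATGGC were in 9 of 60 windows (15%, against 3.57% of protein-coding genes). YY1 is a zinc-finger factor known to act on nuclear genes of mitochondria. In 7 of the 9 the letters began 20 to 40 bases after the annotated start on the gene's own strand, a range chosen after the positions were seen. All 7 were complex I genes, which is 22.6% of the 31 complex I genes with a window, against 0.886% of protein-coding genes. The YY1 letters hold ATG, the letters of a start codon. Whether these matches are YY1 sites or starts of the coding sequence was not tested. The first of the YY1 letters lay at base 23 in Ndufc1 and Ndufa3, at 25 in Ndufs7, 30 in Ndufa9, 34 in Ndufs6, 36 in Ndufs4 and 39 in Ndufb8, counted from the start. The NRF1 and YY1 letters together covered 18 genes, and 0 windows held both. Below are 30 bases around each match with the YY1 letters in capitals.
Ndufc1, chr3:51408915-51408944, minus strand: gcctgcggaacAAGATGGCgccgtccgtag
Ndufa3, chr7:3617384-3617413, plus strand: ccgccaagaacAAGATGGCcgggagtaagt
Ndufs7, chr10:80249462-80249491, plus strand: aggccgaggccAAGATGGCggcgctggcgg
Ndufa9, chr6:126849097-126849126, minus strand: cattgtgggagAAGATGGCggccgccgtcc
Ndufs6, chr13:73328433-73328462, minus strand: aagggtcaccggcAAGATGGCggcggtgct
Ndufs4, chr13:114388045-114388074, minus strand: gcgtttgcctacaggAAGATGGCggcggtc
Ndufb8, chr19:44555393-44555422, minus strand: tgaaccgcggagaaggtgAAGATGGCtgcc

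The array values of genes with and without these letters are given as a description, with no test. Genes with the NRF1 letters had a median difference of -0.05 and the other genes with a window -0.09. In Tet2-/- replicate 6 the median deviation was 0.13 with and 0.32 without them. For the YY1 letters the median differences were -0.09 and -0.08, and the replicate 6 deviations 0.15 and 0.29.

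**Figure D2:**
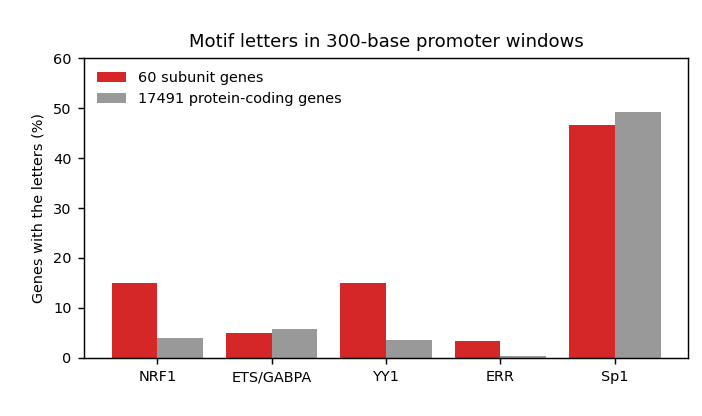
Percent of genes whose 300-base promoter window holds the letters of each motif, for the 60 subunit genes with a window (red) and for 17491 protein-coding genes (grey); no error bars, since these are counts over the windows. The NRF1 and YY1 letters were in 15% of subunit windows each, and the Sp1 letters in 46.7% against 49.2%.

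Complex I, the NADH dehydrogenase, had 7 genes higher, 27 lower and 1 equal among 35, with a median difference of -0.08 (-0.23 without Tet2-/- replicate 6). It is built from a catalytic core that is shared with bacteria and a shell of accessory subunits that stabilise it. The 6 measured nuclear core genes had a median range over the arrays of 0.31, with 0.15 for Ndufs1 and 0.63 for Ndufv2 at the ends. Ndufv1, which carries the NADH site, was at 6.73, 6.68 and 6.61 in wild-type and 6.76, 6.60 and 6.66 in Tet2-/- libraries. The means were equal, with a 95% interval of the difference from -0.28 to 0.28. Ndufs1, the largest iron-sulfur subunit, was at 6.03, 6.16 and 6.06 against 6.04, 6.14 and 6.01. The arrays of both groups interleaved for Ndufv1 and Ndufs1.

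Ndufs8, an iron-sulfur subunit of the connecting arm, was at 7.64, 7.59 and 7.71 in wild-type and 7.58, 7.46 and 7.47 in Tet2-/- libraries. It was the 1 subunit gene whose Tet2-/- arrays all lay below the wild-type arrays, yet wild-type replicate 5 and Tet2-/- replicate 4 nearly touched. The difference was -0.14 (95% interval -0.42 to 0.14, limma adjusted p = 0.998). Ndufs7, which holds the last iron-sulfur cluster before ubiquinone and has the YY1 letters shown above, was at 8.35, 8.69 and 8.68 against 8.56, 8.32 and 8.58. Ndufs3, a structural core subunit, was at 4.38, 3.88 and 3.89 against 4.46, 4.20 and 4.21, a difference of 0.24. Ndufv2, a further iron-sulfur subunit, was at 7.76, 8.16 and 8.28 against 7.77, 7.91 and 8.39. Both groups overlapped for Ndufs7, Ndufs3 and Ndufv2. Averaged over the core genes, the deviations were -0.03, 0.02 and 0.03 in wild-type and 0.02, -0.07 and 0.04 in Tet2-/- libraries.

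The 27 accessory genes, counted without Ndufa4 and Ndufa4l2, spread further over the arrays, with a median range of 0.79. Their average deviations were -0.10, 0.12 and 0.11 in wild-type and -0.16, -0.27 and 0.29 in Tet2-/- libraries. Replicate 6 was the highest array for 18 of the 27. The median difference was -0.09, and -0.25 without replicate 6, when 24 were lower and 10 had an unadjusted p under 0.05 (against 4.91% of all probe sets lower in that fit) and 0 an adjusted p under 0.05. The contrast between core and accessory genes was seen in the values and was not tested.

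Among accessory genes, Ndufb11, a membrane-arm subunit, had the largest positive difference. Its levels were 5.27, 5.07 and 4.64 in wild-type and 5.55, 5.27 and 5.77 in Tet2-/- libraries. The Tet2-/- arrays were higher except for a tie between wild-type replicate 4 and Tet2-/- replicate 5 at 5.27. The difference was 0.54 with a standard error of 0.198 (1.45-fold, limma unadjusted p = 0.024, adjusted p = 0.998). Ndufab1, the mitochondrial acyl carrier protein that also serves fatty acid and lipoic acid synthesis, was at 5.27, 5.60 and 5.64 against 5.86, 5.26 and 6.38. Its difference of 0.33 was 0.06 without replicate 6.

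Ndufb3, another membrane-arm subunit, had the largest negative difference, on a signal weaker than that of most subunit genes. Its mean level was at percentile 56.5 of all probe sets, against a median of 94.8 over the 73 genes. It was at 3.62, 3.04 and 3.96 in wild-type and 2.74, 2.94 and 3.17 in Tet2-/- libraries, with an overlap between wild-type replicate 5 and Tet2-/- replicate 6. The difference was -0.59 with a standard error of 0.231 (0.664-fold, limma unadjusted p = 0.031, adjusted p = 0.998). Ndufa11, a membrane-arm subunit whose promoter holds the NRF1 letters, was at 3.86, 4.15 and 3.52 against 4.08, 3.37 and 2.79. That difference of -0.43 was -0.12 without replicate 6, which was its lowest array. Ndufb6, a membrane-arm subunit, was at 7.85, 8.22 and 8.28 against 7.62, 7.59 and 8.38. Its replicates 4 and 5 lay below, and its replicate 6 above, all wild-type arrays.

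Ndufa7, chosen after its values were seen because it had the widest range of all 73 genes (1.79), showed the array pattern most fully. It was at 7.46, 8.06 and 7.78 in wild-type and 7.07, 6.86 and 8.65 in Tet2-/- libraries. The difference was -0.24 over all arrays and -0.80 without replicate 6 (limma adjusted p = 0.237 in that fit). Ndufs6, a zinc-binding subunit with the YY1 letters, was at 9.61, 9.80 and 9.65 against 8.99, 9.29 and 10.14, and was likewise named for its pattern. In both genes replicates 4 and 5 lay below all wild-type arrays and replicate 6 above them.

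The pair Ndufa4 and Ndufa4l2 was counted with complex I by name only. Ndufa4 is now known as a subunit of complex IV and Ndufa4l2 as its paralog induced by hypoxia. Ndufa4 was at 8.59, 8.90 and 9.04 in wild-type and 8.6, 8.32 and 9.20 in Tet2-/- libraries, a difference of -0.14 (-0.38 without replicate 6). Ndufa4l2 was near the floor of the scale, 1.76, 1.92 and 1.82 against 2.20, 2.0 and 2.10. It was the 1 subunit gene whose Tet2-/- arrays all lay above the wild-type arrays. With a 95% interval of -0.02 to 0.56, the difference of 0.27 missed the threshold (limma adjusted p = 0.998).

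**Figure D3:**
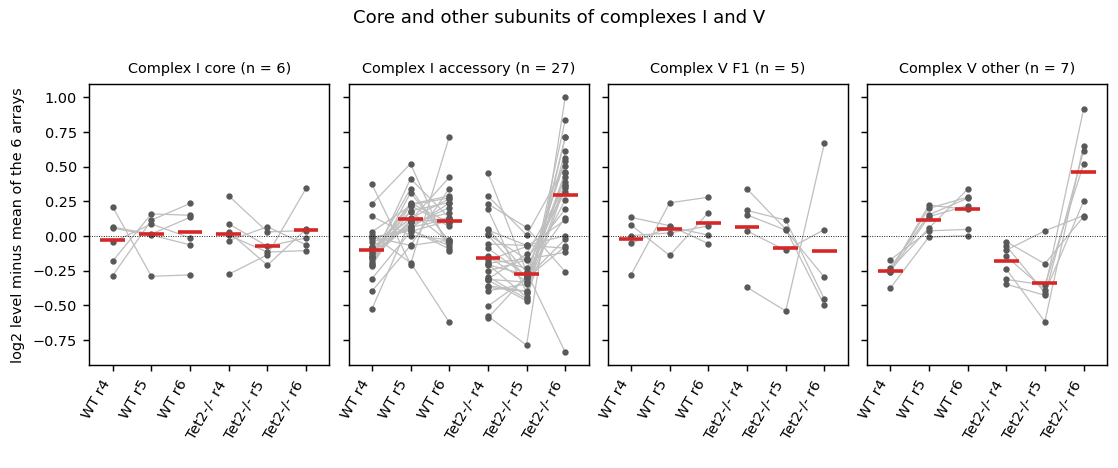
Log2 level minus the gene's mean over the 6 arrays (vertical axis) by array (horizontal axis) for the 6 core and 27 accessory genes of complex I, the 5 genes of the F1 part of complex V (alpha to epsilon) and the 7 other genes of complex V. Grey points joined by lines are genes and red bars their mean; in Tet2-/- replicate 6 the means are 0.04, 0.29, -0.11 and 0.46 from left to right.

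Complex II, succinate dehydrogenase, is also an enzyme of the TCA cycle and is encoded wholly in the nucleus. Of its 4 genes 2 were higher and 2 lower, and it did not share the order of the arrays seen in complex I: the average deviations were -0.09, 0.10 and -0.05 in wild-type and 0.12, -0.09 and 0.02 in Tet2-/- libraries. Sdha, the flavoprotein that oxidises succinate, was at 7.95, 7.76 and 7.57 against 7.97, 8.23 and 7.75. The difference was 0.22 (95% interval -0.16 to 0.60), and 0.34 without replicate 6. Sdhb, the iron-sulfur subunit with the NRF1 letters printed above, was at 7.72, 8.08 and 7.88 against 7.68, 7.73 and 8.07. The membrane anchors differed in opposite directions. Sdhc was at 7.15, 7.35 and 7.26 against 7.75, 7.06 and 7.24, and Sdhd at 7.37, 7.78 and 7.63 against 7.61, 7.16 and 7.56. Both groups overlapped for all 4 genes.

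Complex III, the cytochrome bc1 complex, had 2 genes higher and 5 lower, with a median difference of -0.10 (-0.15 without Tet2-/- replicate 6). Its core proteins were at similar levels in both groups: Uqcrc1 at 7.76, 7.68 and 7.67 against 8.09, 7.59 and 7.50, and Uqcrc2 at 7.60, 7.91 and 8.06 against 7.79, 7.63 and 7.85. Uqcrfs1, the Rieske iron-sulfur protein, was at 4.70, 5.15 and 4.85 against 4.81, 4.81 and 4.71, a difference of -0.12. The intervals were -0.37 to 0.41, -0.45 to 0.25 and -0.46 to 0.22 for these 3 genes in that order. The small subunit Uqcrq, which sits next to cytochrome b, was at 7.84, 8.21 and 8.18 in wild-type and 7.53, 7.47 and 8.75 in Tet2-/- libraries. Its difference was -0.16, and -0.58 without replicate 6 (limma adjusted p = 0.299 in that fit). Uqcrh, the hinge protein, was at 9.32, 9.89 and 9.63 against 9.16, 9.39 and 9.95. Uqcr11 was at 5.79, 6.60 and 6.35 against 6.18, 6.28 and 6.48, the complex's largest positive difference at 0.07 (-0.02 without replicate 6).

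Cycs, the electron carrier between complexes III and IV and, once released, a trigger of apoptosis, was at 1.98, 2.16 and 1.52 in wild-type and 1.64, 1.62 and 1.75 in Tet2-/- libraries. The groups overlapped, and the difference was -0.22 (95% interval -0.62 to 0.18). Every respiring cell uses cytochrome c, yet this probe set gave values near the floor of the scale on every array. Differences are compressed there, so little can be read from it.

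Complex IV, cytochrome c oxidase, had 6 genes higher, 7 lower and 1 equal among 14, with a median difference of -0.07 (-0.17 without Tet2-/- replicate 6). Cox4i1, the largest nuclear subunit and a regulatory one, was at 8.91, 9.41 and 9.30 against 8.88, 8.70 and 9.61, a difference of -0.14 (-0.42 without replicate 6). Cox5a was at 7.11, 7.13 and 7.22 against 6.94, 7.09 and 7.45, a difference of 0.01 (-0.14 without it). Cox5b, a zinc-binding subunit, was at 2.78, 3.27 and 3.33 against 2.73, 2.55 and 3.38, a difference of -0.24 (-0.49 without it). Its signal was weak among the subunit genes, with a mean level at percentile 53.2 of all probe sets. Each of these 3 genes had its highest value in replicate 6 and overlapped between the groups.

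Several complex IV subunits come as a widely expressed form and a form of other tissues, and both forms were measured. Cox6a1, a widespread form with the NRF1 letters, was at 10.79, 10.80 and 10.80 in wild-type and 10.96, 10.70 and 10.76 in Tet2-/- libraries. Its heart and skeletal muscle form Cox6a2 was at 3.30, 3.31 and 3.87 against 3.92, 3.79 and 4.35, with wild-type replicate 6 above Tet2-/- replicate 5. The difference of 0.53 had a standard error of 0.207 (1.44-fold, limma unadjusted p = 0.032, adjusted p = 0.998). Cox4i2, the form of lung and of low oxygen, differed by -0.13. Cox6b1 differed by -0.18 and its testis form Cox6b2 by 0.00, and by -0.31 and -0.10 without replicate 6.

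The Cox7a forms were all lower in the Tet2-/- libraries by the means. Cox7a1, the muscle form, was at 4.44, 4.80 and 4.89 in wild-type and 4.06, 4.38 and 4.94 in Tet2-/- libraries. Cox7a2, the widespread form, was at 6.82, 7.08 and 7.20 against 6.68, 6.61 and 7.18. Cox7a2l, which joins complexes III and IV into supercomplexes and is known in a shortened form in C57BL/6J mice, was at 5.56, 5.77 and 5.71 against 4.99, 5.20 and 5.94. All 3 had replicates 4 and 5 below every wild-type array, and replicate 6 within or above them. Their differences were -0.25, -0.21 and -0.30, and -0.49, -0.39 and -0.59 without replicate 6 (limma adjusted p = 0.433, 0.465 and 0.245 in that fit). Cox7b was at 1.59, 1.66 and 1.16 against 1.61, 1.74 and 2.01, and Cox6c at 4.01, 4.28 and 4.14 against 3.98, 4.23 and 4.60. Their differences were 0.32 and 0.13, and 0.20 and -0.04 without replicate 6. Cox7b, like the testis form Cox7b2 at a difference of 0.02 (-0.17 without it), lay near the floor of the scale, where little can be read.

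Complex V had 2 genes higher and 10 lower, with a median difference of -0.09 (-0.15 without Tet2-/- replicate 6). Its F1 head holds the catalytic sites. Atp5a1, the alpha subunit, was at 9.13, 9.07 and 8.94 in wild-type and 9.18, 9.11 and 8.54 in Tet2-/- libraries. Atp5b, the catalytic beta subunit, was at 9.60, 9.62 and 9.67 against 9.75, 9.64 and 9.30. Atp5d, the delta subunit of the central stalk, was at 8.24, 8.02 and 8.33 against 8.50, 8.21 and 7.66. In all 3 genes replicate 6 was the lowest of the 6 arrays and replicate 4 the highest. Atp5c1, the gamma subunit that turns inside the head, was at 4.00, 4.12 and 4.06 against 4.09, 3.95 and 4.10, without that order. Atp5e, the epsilon subunit of the stalk, went the opposite way, with 8.06, 8.58 and 8.62 in wild-type and 7.97, 7.80 and 9.01 in Tet2-/- libraries, a difference of -0.16 (-0.54 without replicate 6). Its replicate 5 was the lowest array and its replicate 6 the highest. The differences of Atp5a1, Atp5b and Atp5d were -0.10, -0.07 and -0.07, and 0.10, 0.06 and 0.16 without replicate 6. That of Atp5c1 was -0.01, and -0.04 without it.

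The other 7 genes of complex V belong to the membrane part and the outer stalk. Atp5g3, a gene of the membrane ring with the receptor letters printed above, was at 8.17, 8.62 and 8.70 in wild-type and 8.35, 8.01 and 8.67 in Tet2-/- libraries, a difference of -0.15 (-0.32 without replicate 6). Atp5k, subunit e of the membrane part with the NRF1 letters, was at 8.62, 9.0 and 9.12 against 8.61, 8.23 and 9.50, a difference of -0.13 (-0.49 without it). Replicate 5 was the lowest array of both. Atp5o, the stalk protein that confers oligomycin sensitivity, was at 4.47, 4.84 and 4.85 against 4.70, 4.46 and 5.76. Its difference of 0.25, the largest positive one of the complex, was -0.14 without replicate 6. Atp5j, coupling factor 6, differed by 0.06, and by -0.0033 without it. The average deviations of the 7 genes were -0.26, 0.12 and 0.19 in wild-type and -0.18, -0.34 and 0.46 in Tet2-/- libraries. For the 5 F1 genes, alpha to epsilon, they were -0.02, 0.05 and 0.10, and 0.07, -0.09 and -0.11, with Atp5e and Atp5c1 not following the other F1 genes in replicate 6. The contrast between both sets was noticed in the values and was not tested.

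**Figure D4:**
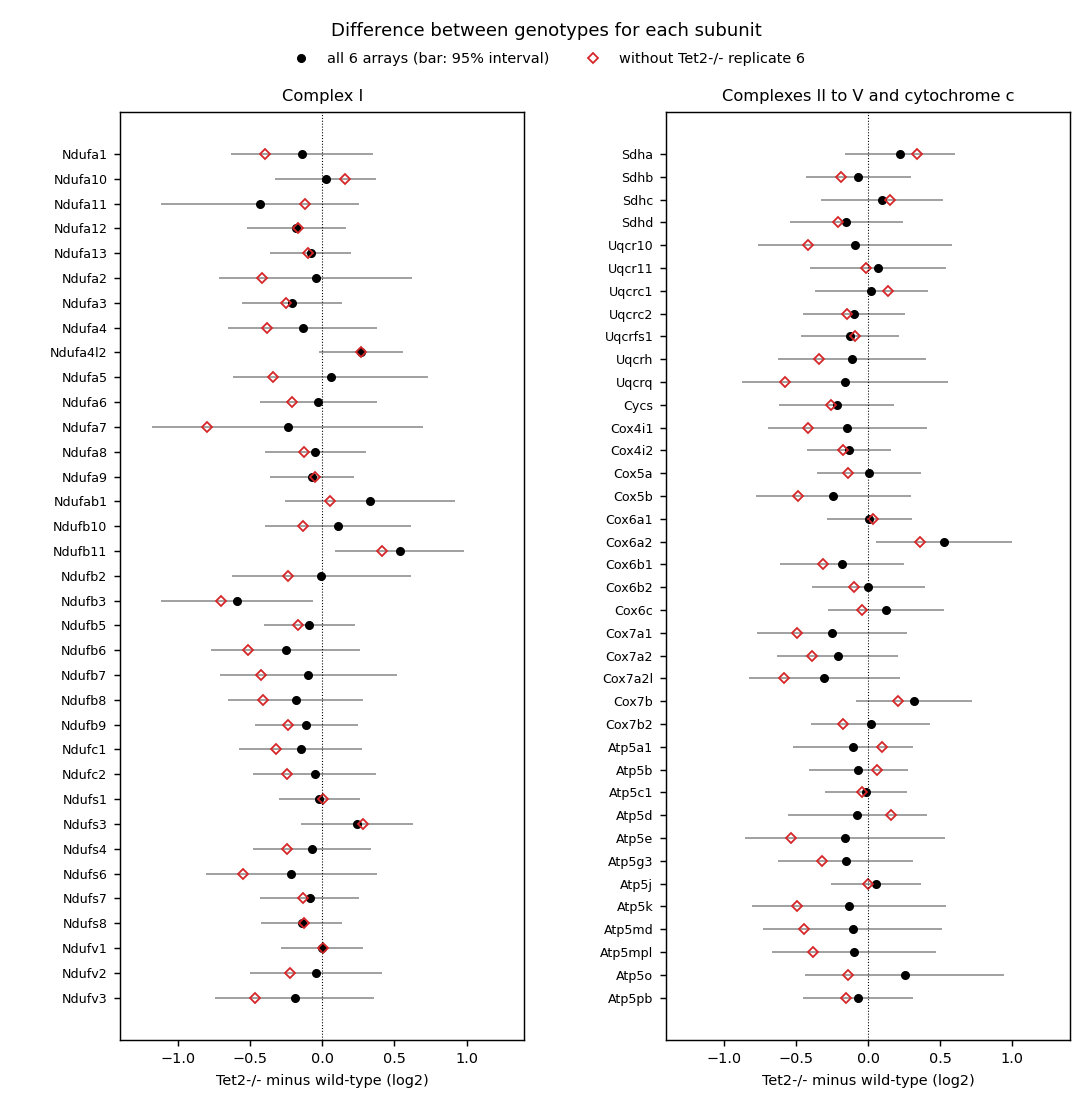
Log2 difference between Tet2-/- and wild-type means (horizontal axis) for each subunit gene (vertical axis). Black points with grey bars are all 6 arrays with the 95% interval from limma, and red diamonds leave out Tet2-/- replicate 6; black points run from -0.59 (Ndufb3) to 0.54 (Ndufb11) and 57 of the 73 diamonds lie below 0.

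Other lists of the same pathway were set beside the subunits. Of 54 assembly factors and subunits outside the name rule, 52 were measured, 17 higher and 34 lower, with a median of -0.08 (-0.19 without replicate 6) and 0 passing the adjusted threshold. Their smallest p-values belonged to Atpaf2, which assembles the F1 head, at -0.32, Cox11, a copper chaperone of complex IV, at 0.33, and Pet100, an assembly factor of complex IV, at -0.35 (-0.535 without replicate 6). The same arrays were high and low as for the subunits, with average deviations of -0.10, 0.08 and 0.11 in wild-type and -0.06, -0.17 and 0.13 in Tet2-/- libraries.

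The 19 regulators of mitochondrial gene expression did not share this order, and their average deviations stayed within 0.045 of 0 on every array. The median difference was -0.02 (-0.05 without replicate 6), with 6 higher and 12 lower. Tfb1m, which methylates the mitochondrial ribosomal RNA, was at 4.82, 4.87 and 4.96 in wild-type and 4.56, 4.56 and 4.59 in Tet2-/- libraries. Its groups did not overlap, and over all probe sets the difference of -0.31 missed the threshold (limma adjusted p = 0.998). Nrf1, the factor whose letters were searched above, differed by 0.28, with levels of 4.83, 4.40 and 4.48 against 4.92, 4.85 and 4.79, where wild-type replicate 4 lay within the Tet2-/- range. Gabpb1, the partner of GABPA, differed by -0.27, and by -0.06 without replicate 6.

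The 18 measured genes of pyruvate dehydrogenase and the TCA cycle, which feed the chain with NADH, ran the other way in replicate 6. Their average deviations were 0.02, 0.04 and -0.02 in wild-type and 0.13, 0.06 and -0.23 in Tet2-/- libraries, and replicate 6 was the lowest array for 11 of the 18 (61.1%, against 20.5% of all probe sets and 32.9% of the brighter ones). The median difference was -0.03, and 0.07 without replicate 6. Pdhb, a subunit of pyruvate dehydrogenase, differed by -0.23, and the isocitrate dehydrogenase genes Idh3a and Idh3b by -0.26 and -0.16 (-0.16 and 0.015 without replicate 6). Of the 17 measured carriers and import factors, 8 were higher and 9 lower with a median of -0.01. Chchd4, of the intermembrane import route, differed by -0.27, Phb2, a prohibitin, by -0.21 and Hspd1, a chaperonin, by 0.17.

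Lists outside the pathway showed the same order of arrays in part. The 76 mitochondrial ribosome genes averaged -0.13, 0.11 and 0.14 in wild-type and -0.06, -0.24 and 0.19 in Tet2-/- libraries, with a median difference of -0.11 (-0.20 without replicate 6). The 63 cytosolic ribosome genes averaged -0.13, 0.06 and 0.04 against -0.11, -0.13 and 0.28. The 38 proteasome genes averaged -0.10, 0.14 and 0.07 against -0.08, -0.12 and 0.09. By the group means over all arrays, 69.7% of the mitochondrial ribosome, 50.8% of the cytosolic ribosome and 78.9% of the proteasome genes were lower. The share among the subunit genes was 71.2%. The smallest p-values belonged to Mrps6, Mrps23 and Mrps11 at -0.37 (-0.57 without replicate 6), -0.27 and -0.25 in the mitochondrial ribosome, and to Rps27, Rps4l and Rps15 at -0.47, 0.59 and 0.87 (0.33 without replicate 6) in the cytosolic one. In the proteasome list they belonged to Psmc3ip, a recombination factor caught by its name, at -0.44, Psmd8 at -0.24 and Psmb9 at 0.31. The brighter probe sets together stayed between -0.06 and 0.04 on every array. By these averages only the mitochondrial ribosome had both Tet2-/- replicate 6 as the highest and replicate 5 as the lowest array. The cytosolic ribosome was highest in replicate 6, with wild-type replicate 4 (-0.134) and Tet2-/- replicate 5 (-0.131) about equally low. The proteasome was lowest in Tet2-/- replicate 5 but highest in wild-type replicate 5.

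Markers of B cells and of resident large peritoneal macrophages moved with the arrays as well. Of 9 measured B-cell markers, 8 were higher in the Tet2-/- libraries by the means and Cd22 was lower. The list's mean log2 level was 3.75 to 3.93 in wild-type and 4.58, 5.14 and 3.68 in Tet2-/- replicates 4, 5 and 6. Of 8 markers of the resident large peritoneal macrophage, 6 were higher, with 4.33 to 4.71 in wild-type and 5.4, 5.54 and 4.41 in the same 3 libraries. Without replicate 6, 7 B-cell and 6 resident macrophage markers were higher at an unadjusted limma p under 0.05, against 4.96% of all probe sets. The median differences of the lists were 0.93 and 0.89. Cd22 was lower by the same threshold, at -0.75, against 4.91% of all probe sets. Cd79a, Alox15 and Icam2 had a limma adjusted p under 0.05, against 0.0754% of all probe sets, all higher by 2.22, 2.97 and 1.61. None of these markers was at 0, the lowest value being that of Ms4a1, 1.71 in wild-type replicate 6. Yet Ms4a1, Blk and Pax5 lay near the floor of the scale in wild-type libraries, where differences are compressed. Tet2-/- replicate 5 thus held the highest B-cell and resident macrophage levels and the lowest subunit levels. Replicate 6 held the highest subunit levels, with B-cell and resident macrophage levels within or below the wild-type range. The arrays of replicate 4 did not show such an opposite order. Their average subunit deviations were alike, -0.119 in wild-type and -0.105 in Tet2-/-. Their B-cell deviations were -0.36 and 0.44, and their resident macrophage deviations -0.09 and 0.60. The 7 general macrophage markers were also highest in replicate 5 and lowest in replicate 6 on average, with deviations of 0.35 and -0.42. T-cell, neutrophil, mast-cell, eosinophil and mesothelial markers moved less in both of these Tet2-/- libraries. Their average deviations were -0.01, -0.06, 0.065, -0.03 and -0.09 in replicate 5, against 0.99 for B-cell and 0.74 for resident macrophage markers. In replicate 6 they were -0.01, 0.18, 0.03, 0.05 and -0.10, against -0.47 and -0.385. The part of cell make-up in the subunit values was not tested.

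**Figure D5:**
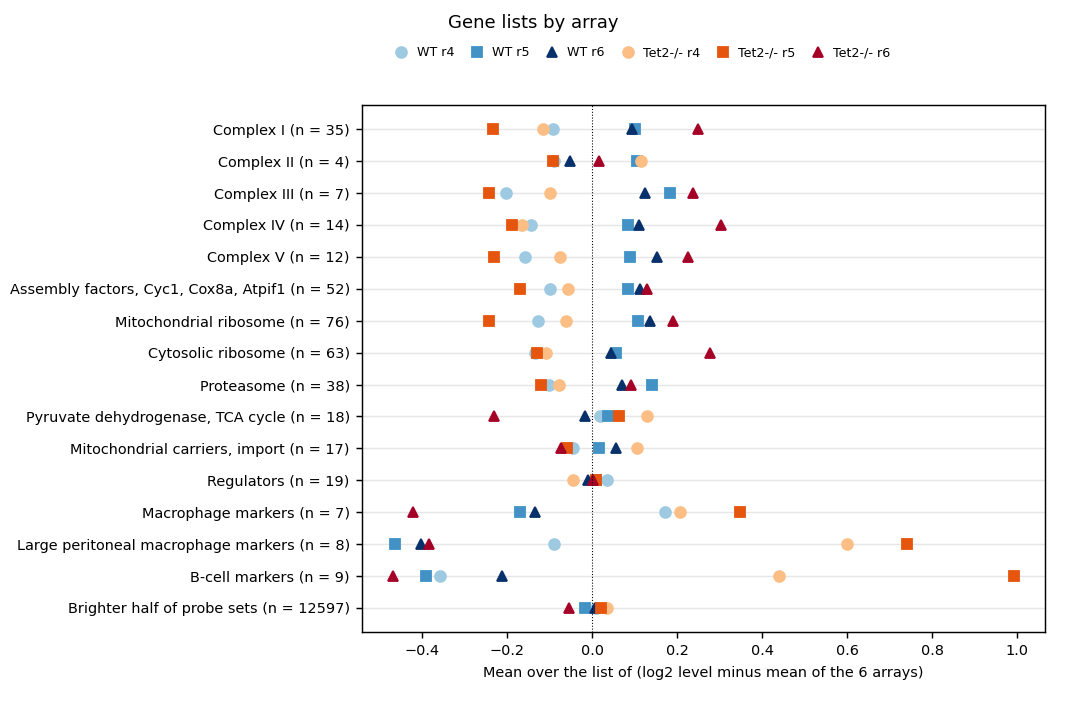
Mean over each gene list of the log2 level minus the gene's mean over the 6 arrays (horizontal axis), by list (vertical axis, n genes); symbols are single arrays, blue for wild-type and orange to red for Tet2-/-. Complexes I, III, IV and V, the assembly factors and both ribosomes have Tet2-/- replicate 6 at the right end, and the TCA cycle and the macrophage and B-cell markers have it at the left end.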

How the data were processed

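The 6 arrays, 3 per genotype, came with 1 table of log2 expression values for 25206 probe sets, deposited by the authors. Per the submitters' processing notes it was made by RMA (affy 1.36.1). This method subtracts background, equalises the distributions and summarises probes, and compresses differences near background. The log2 scale was read from the values and the method. Background was not checked, since scanner files were not used here. The sources used here name neither the probe definition nor whether the arrays were normalized jointly. All probe sets were fitted with limma 3.58.1 in R 4.3.3 (lmFit, eBayes, two-sided, no covariate) with Benjamini-Hochberg adjustment over the table at 0.05. The scripts were tested on simulated data.

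The members, lists, motifs and tests were chosen with earlier results of these data known. Lists are described by counts and medians beside all probe sets, with no test. Genes described singly were core catalytic subunits, the 3 largest differences each way in complexes I, III, IV and V, genes with unadjusted p under 0.05 or groups without overlap, and paralog pairs; of other lists, the 3 members with the smallest p. Of cell type markers only summaries are given, beside single markers at the extremes. Alternatives were the genotype characteristic as grouping, the replicate number as a block, limma's trended robust variances and array weights, centring each array on its median, quantile normalization of the deposited values, only probe sets brighter than the median, members without isoforms of other tissues, and leaving out each array. Promoter windows came from RefSeq (GRCm38.p6), and 13 members had none. The number of arrays limits the precision.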

Additional observations from a re-analysis of the deposited data

How the results depend on the processing

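No subunit gene passed an adjusted p of 0.05 under any of the settings tried, the smallest adjusted p among them being 0.237 without Tet2-/- replicate 6. The count with an unadjusted limma p under 0.05 was 3 over all arrays, against 3.61% of all probe sets. With array weights it was 12, against 8.28% of all probe sets. It ran from 2 to 19 when single arrays were left out, with 19 reached without Tet2-/- replicate 6, against 9.87% of all probe sets. The count of genes whose groups did not overlap, 2 as reported, was 1 among the brighter probe sets and 1 without the isoforms of other tissues. It was 4 after a further quantile normalization and 4 to 32 with single arrays left out, where fewer arrays make a gap more likely. The share over all probe sets is not given for those settings, so these counts are not read as a result about the subunits. The median difference of -0.09 ran from -0.17 to 0.01 with single arrays left out. Grouped by the genotype characteristic the median was 0.02, 53 of 73 genes changed sign, and Ndufb11, Ndufb3 and Cox6a2 differed by -0.54, 0.14 and -0.20; the values do not settle which label is right. Median-centred arrays turned the sign of 5 genes and quantile normalization that of 2. Deviations of same-numbered arrays had correlations of 0.15, -0.215 and 0.112. With 3 arrays per genotype these cannot settle whether the numbers pair the samples. With the replicate block the median was -0.0867, 3 genes had an unadjusted limma p under 0.05 and no call changed.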
